A study of Caenorhabditis elegans with 8 samples.

Results

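The small RNA pathway genes of Caenorhabditis elegans were followed through whole-worm RNA from animals exposed to DEET, an insect repellent, or to the solvent alone. The set held 43 listed genes, of 46244 gene identifiers in the deposited tables, and was arranged by role into Argonautes, polymerases with the amplification machinery, and nuclear silencing factors. The genes were found by sequence name in the annotation of genome build WBcel235. All 43 passed the filter on low counts, which left 15496 genes tested. One of them, wago-3, stands in that annotation under its other name ppw-2.

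Small RNA pathways use short guide RNAs carried by Argonaute proteins to find matching transcripts. In worms, Dicer, the ERI complex and the piRNA machinery make primary guides, and RNA-dependent RNA polymerases then copy the targeted transcripts into secondary guides at the Mutator foci, where the signal is amplified. Most of this machinery is most active in the germline, where it silences transposons and foreign sequence and carries silencing to the offspring, while nuclear Argonautes and their NRDE partners act on chromatin and transcription.

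All worms were of the strain the labels name for col-121, a cuticle collagen gene, and no further allele is given. Animals at the end of the L4 larval stage were exposed for 24 hours either to 0.1% DMSO, the solvent control, or to DEET dissolved in DMSO, for which the labels give 0.1 M without saying whether this was the stock or the final level. Each group had 4 libraries, described as independent biological repeats of 1000 pooled worms each, and each library carries a pair number from 1 to 4 that the labels mark as a batch and that joins 1 DEET with 1 DMSO library. The values below are polyadenylated transcripts of protein-coding pathway genes, so the small RNAs themselves were not measured.

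The libraries held 44437681 to 50295321 counts. Batch 4 stood apart from batches 1 to 3 across the transcriptome, and ribosomal RNA took 12.1% and 10.9% of the counts in its DEET and DMSO libraries against 3.91% to 8.32% in the other 6. Markers of the tissues of an adult hermaphrodite were present: 11 germline, 13 oocyte, 15 sperm, 8 body wall muscle, 7 intestine, 8 neuron and 8 epidermis markers all passed the filter, whereas 2 of 12 embryo markers did. In whole-worm RNA, fewer cells of a type and less RNA per cell cannot be told apart.

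The pathway was carried at middle to high transcript levels in these worms. By mean TPM (a transcript level corrected for length and scaled to a fixed total per library) over the 8 libraries, wago-1 was highest at 283.1, above 97.0% of tested genes. It was followed by hrde-1 at 226.3, csr-1 at 156.9, prg-1 at 146.9, rde-4 at 114.5, ppw-1 at 112.1, tofu-6 at 112.0 and ergo-1 at 106.0. The lowest were alg-3 at 4.98, alg-4 at 5.80 and sago-2 at 5.88, which put them above 37.8%, 40.4% and 40.7% of tested genes. In a single library the summed level of all 43 genes ran from 2756.7 to 2867.4 TPM in batches 1 to 3. In batch 4 it was 1931.4 TPM with DMSO and 2109.6 TPM with DEET.

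**Figure D1:**
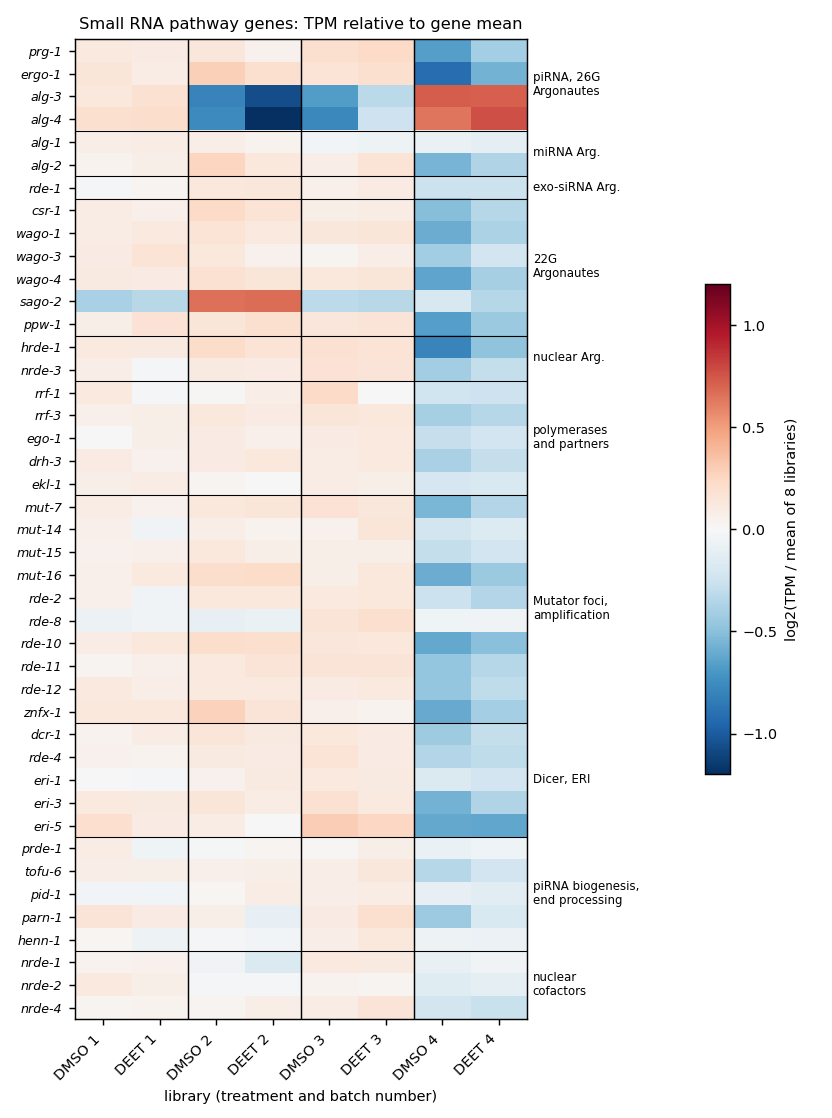
Level of each of the 43 small RNA pathway genes in each of the 8 libraries, as log2 of TPM over the gene's mean TPM of all libraries, with the genes in role order on the vertical axis and the libraries by batch number on the horizontal axis. The columns of batch 4 are blue for nearly all genes and red for alg-3 and alg-4, sago-2 is red in both batch 2 libraries, and DMSO and DEET columns of 1 batch look alike.

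The comparison the series was made for, DEET against its solvent, showed no change that passed the test in any small RNA pathway gene. With edgeR's quasi-likelihood test without the pair as a block, 0 of 43 genes were called at an adjusted p below 0.05, against 0% of all tested genes, and 0 had an unadjusted p below 0.05. With the pair as a block the count was again 0 of 43, against 0.0839% of all tested genes (13 genes, all higher with DEET), and again 0 at the unadjusted threshold. DESeq2 called 0 of 43 with and without the block, and 0 at the unadjusted threshold. The DEET and DMSO ranges of TPM overlapped for all 43 genes, while they were separate for 0.484% of all tested genes. Where both batch 4 libraries lie outside the other 6, the ranges overlap whatever DEET does, since each treatment holds 1 of them. That was so for 36 genes with batch 4 below and 2 with it above, so the overlap tells nothing of DEET there.

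The estimates were small on both sides. Without the block, the log2 fold change of DEET over DMSO ran from -0.08 for rrf-1 to 0.09 for alg-4, with a median of 0.02 against 0.00 over all tested genes. With the block it ran from -0.07 to 0.10, above 0 for 31 genes and below 0 for 12. Of all 15496 tested genes 8196 lay above 0 and 7300 below 0 in that fit. The 95% intervals of the blocked fit lay within 0.1 of 0 on the log2 scale for 12 genes, within 0.2 for 41 and within 0.5 for all 43. The widest was that of alg-4, from -0.25 to 0.38, whose upper bound is 1.3-fold. Without the block the intervals were wider, because the difference between batches then counts as spread: 35 of 43 lay within 0.5 of 0, and that of alg-4 reached 1.15, or 2.22-fold.

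Within the batches, the median log2 ratio of DEET over DMSO of the 43 genes was 0.01 in batch 1, -0.04 in batch 2, 0.00 in batch 3 and 0.10 in batch 4. Over all tested genes the same medians were 0.00, -0.02, 0.01 and -0.01. The ratio was above 0 for 27, 13, 22 and 33 of the 43 genes in batches 1, 2, 3 and 4. Of all 15496 tested genes it was above 0 for 7832, 6850, 8257 and 7529. It had 1 sign in all 4 batches for 5 genes: ppw-1, mut-16 and rde-8 were higher with DEET in every batch, as were 4.56% of all tested genes, and rde-2 and eri-5 were lower in every batch, as were 5.71%.

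Batch 4 held the highest ratio of prg-1, ergo-1, csr-1, wago-1, wago-3, wago-4, ppw-1 and hrde-1, the Argonautes of the germline other than alg-3 and alg-4. This was not particular to them. Batch 4 also held the highest ratio of alg-2, at 0.20, and of the somatic nrde-3, at 0.14, though not of alg-1, rde-1 or sago-2. Outside the Argonautes it did so for znfx-1 and eri-3, at 0.21 each, and mut-7, at 0.19, among others. There the log2 ratio was 0.35 for ergo-1, 0.31 for hrde-1, 0.26 for prg-1, 0.26 for the piRNA trimming nuclease gene parn-1 and 0.24 for wago-4. The median ratio of 11 germline markers was 0.20 in batch 4 and that of 13 oocyte markers was 0.21, and both lay from -0.02 to 0.00 in the other batches. The part of these markers in the batch 4 ratios was not tested. Leaving out the DEET library of batch 4 moved the median of the 43 genes to 0.11 without the block, and leaving out the DMSO library of batch 4 moved it to -0.08.

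**Figure D2:**
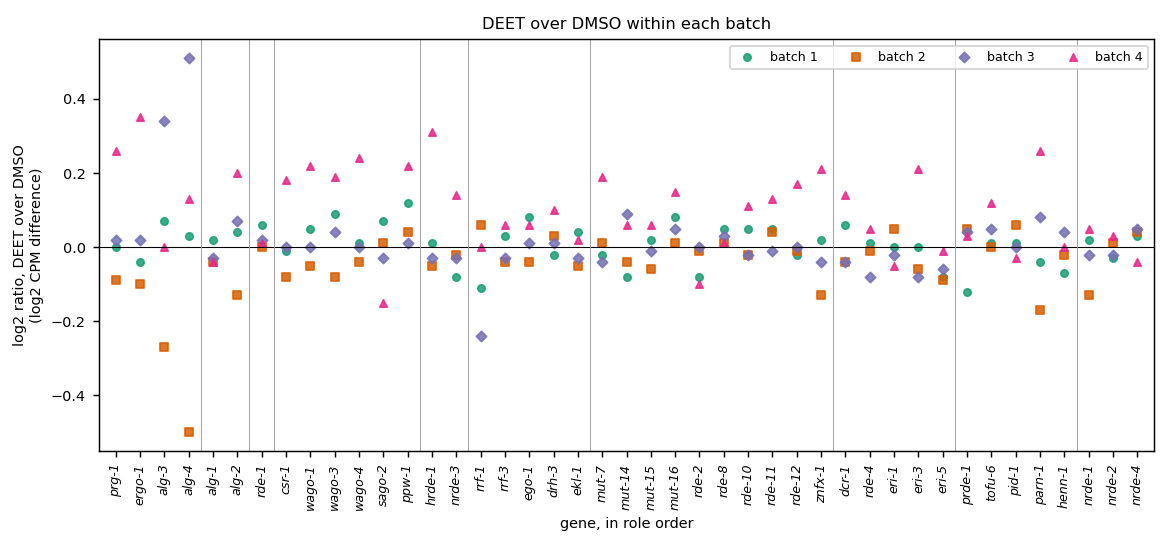
Log2 ratio of DEET over DMSO within each batch (difference of log2 CPM, vertical axis) for the 43 genes in role order (horizontal axis). There is 1 point per batch. CPM are counts scaled to the library total times the library's TMM scaling factor. Most points of batches 1 to 3 lie close to 0, those of batch 4 often lie highest, and alg-3 and alg-4 spread most, from -0.50 in batch 2 to 0.51 in batch 3 for alg-4.

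Batches differed far more than treatments did. With the treatment kept in the fit, 40 of 43 genes (93.0%) differed between the 4 batches at an adjusted p below 0.05 in the edgeR test, against 64.9% of all tested genes. The 3 that did not pass were prde-1, pid-1 and henn-1, all of piRNA biogenesis or end processing, with adjusted p of 0.574, 0.0665 and 0.0596. The last 2 values lay close to the threshold. With DESeq2's size factors (RLE) 42 of 43 passed and without a scaling factor 37 did, so which genes passed depended on the scaling.

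Batch 4 stood apart here as well. The contrast of batch 4 with batches 1 to 3 was chosen with earlier results of these data known, which had set batch 4 apart. Its calls thus describe a batch already known to differ. Its p rests on how alike the DEET and DMSO libraries of a batch are, not on the spread between batches. Against batches 1 to 3, 37 of 43 genes were lower in batch 4 (86.0%, against 29.8% of all tested genes) and 2 were higher (4.65%, against 36.4%). Those 2 were alg-3 and alg-4, the Argonautes of sperm-producing germ cells. The other 4 genes, rde-8, prde-1, henn-1 and nrde-1, did not pass, with log2 differences of -0.05, -0.08, -0.08 and -0.07. The median log2 difference of the 43 genes was -0.41, beside 0.08 over all tested genes. Both batch 4 libraries lay below the other 6 libraries for 36 of the 43 genes (30.3% of all tested genes) and above them for 2 (33.6%).

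The size of that difference depended on the scaling. Without a scaling factor the median of all tested genes was 0.20 in place of 0.08, a shift of over 0.1, the median of the 43 genes was -0.29, and 33 genes were lower and 2 higher. Relative to the median of all tested genes, the median of the 43 genes was -0.48 with TMM scaling and -0.49 without a scaling factor. Of all called genes 55% were higher in batch 4 with TMM scaling and 66.1% without a scaling factor. The 39 called genes had the same sign under both, with alg-1 at -0.00 without a scaling factor, and the 4 genes that did not pass turned to values between 0.04 and 0.07.

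The direction was also the same in both treatments taken alone. For the DMSO libraries the median log2 difference of batch 4 from batches 1 to 3 was -0.47, and for the DEET libraries it was -0.35. Of the 43 genes 41 lay below 0 in both treatments and 2 above 0 in both, and 34 were nearer to 0 with DEET. The shares of all tested genes that did so were not computed. Across the transcriptome, too, the DMSO library of batch 4 differed more from its group (chi-square per gene of 170 to 275) than the DEET library did (147 to 199). With 1 library per treatment and batch, the difference between the treatments here was not tested.

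**Figure D3:**
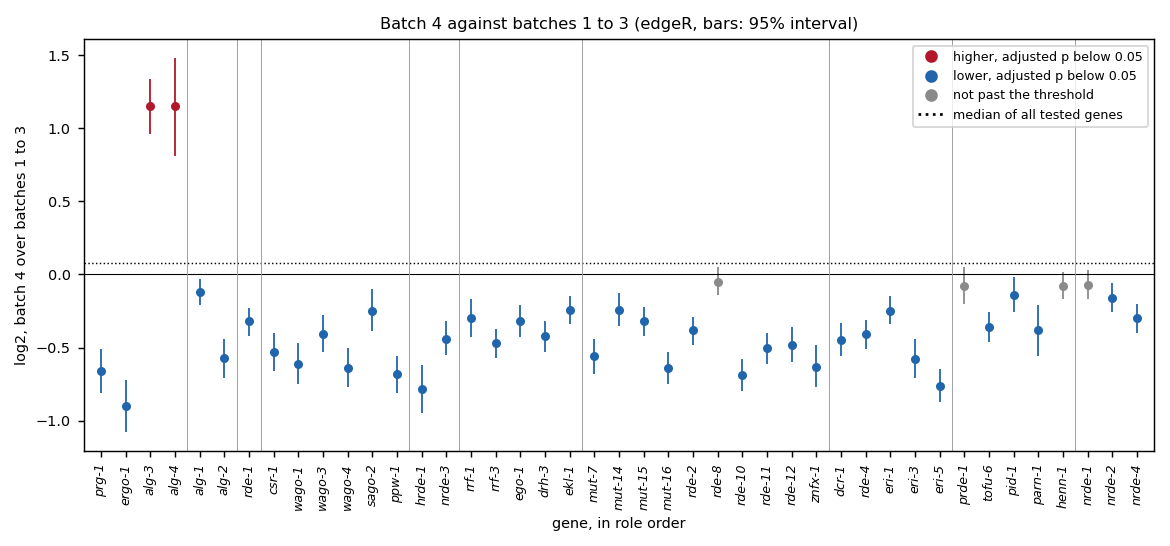
Log2 difference of batch 4 from batches 1 to 3 (vertical axis, edgeR with the treatment in the fit) for the 43 genes in role order (horizontal axis), with 95% intervals as bars, colour for the call, and a dotted line at the median of all tested genes. The 37 genes called lower lie from -0.90 for ergo-1 to -0.12 for alg-1, alg-3 and alg-4 stand at 1.15, and the 4 grey genes, which turn slightly above 0 without a scaling factor, lie near 0.

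Among the Argonautes of primary guides made in the germline, prg-1 encodes the Piwi protein that carries piRNAs, and it lies on chromosome I at 7585329 to 7588367, minus strand. Its level was 159.6, 161.2, 168.2 and 93.1 TPM in DMSO batches 1 to 4 and 157.7, 152.1, 172.3 and 111.0 TPM in DEET batches 1 to 4. The batch 4 library was the lowest of each treatment, and the treatments overlapped. The log2 difference of batch 4 was -0.66 ± 0.07 (SE, adjusted p = 1.1e-05), and that of DEET was 0.03 ± 0.21 (adjusted p = 1). The near-identical copy prg-2 ran from 61.9 to 117.4 TPM with its low values also in batch 4, and how reads were shared between the copies is uncertain. The gene ergo-1, whose Argonaute carries 26G guides of oocytes and embryos, fell furthest of the 43, from a mean of 120.0 TPM in batches 1 to 3 to 63.8 TPM in batch 4 (log2 -0.90 ± 0.08, adjusted p = 4.9e-06).

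The pair alg-3 and alg-4, needed for the 26G guides of spermatogenesis, went the other way. The level of alg-3 was 5.45, 2.85, 3.13 and 8.22 TPM in DMSO batches 1 to 4 and 5.65, 2.38, 3.99 and 8.18 TPM in DEET batches 1 to 4. Both libraries of batch 4 were the highest, batch 1 was next, and batches 2 and 3 were lowest in both treatments. The level of alg-4 was 6.62, 3.41, 3.40 and 9.05 TPM in DMSO batches 1 to 4 and 6.70, 2.41, 4.88 and 9.89 TPM in DEET batches 1 to 4. As for alg-3, batch 4 was highest, batch 1 next, and batches 2 and 3 lowest in both treatments. The 2 genes lie on different chromosomes, IV and III. In batch 4 both were higher by 1.15 on the log2 scale, with SE of 0.09 and 0.14 and adjusted p of 1.9e-06 and 2.1e-04.

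Sperm markers went with these 2 genes. The summed level of 15 sperm markers was 104.3, 71.1, 72.5 and 136.1 TPM in DMSO batches 1 to 4 and 106.9, 59.0, 89.2 and 142.1 TPM in DEET batches 1 to 4, the same order of batches. The DEET over DMSO ratio also went with them: it was 0.07, -0.27, 0.34 and -0.00 for alg-3 and 0.03, -0.50, 0.51 and 0.13 for alg-4 in batches 1 to 4, beside a median of 0.06, -0.38, 0.33 and 0.04 for the sperm markers. The part of sperm transcripts in the values of alg-3 and alg-4 was not tested. Of the sperm markers 12 of 15 were higher in batch 4, beside 36.4% of all tested genes, and 1 was lower, with a median log2 difference of 1.03.

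**Figure D4:**
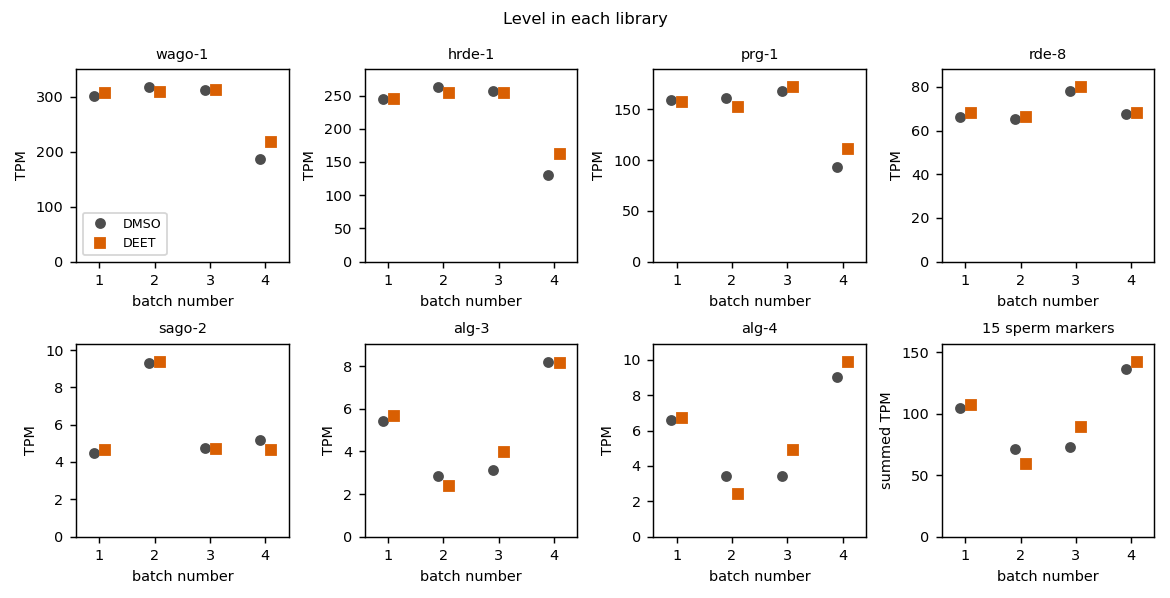
TPM (vertical axis, from 0) against batch number (horizontal axis) for 7 small RNA pathway genes and for the summed TPM of 15 sperm markers, with 1 circle per DMSO and 1 square per DEET library. wago-1, hrde-1 and prg-1 drop in batch 4 in both treatments, rde-8 is highest in batch 3, and sago-2 is highest in batch 2. alg-3, alg-4 and the sperm markers are highest in batch 4, then in batch 1.

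The microRNA Argonautes alg-1 and alg-2 act in most tissues on the targets of microRNAs. The level of alg-1 was 18.8, 18.8, 17.4 and 16.9 TPM in DMSO batches 1 to 4 and 18.9, 18.3, 17.1 and 16.4 TPM in DEET batches 1 to 4. Its values lay close together in all 8 libraries, and its batch 4 difference of -0.12 ± 0.04 (adjusted p = 0.0266) was the smallest of those called; it did not pass without a scaling factor, where it was -0.00, in either limma fit on TPM, or with the library of DEET 1, DEET 3 or DMSO 3 left out. That of alg-2 was 16.6, 19.2, 17 and 10.9 TPM in DMSO batches 1 to 4 and 16.9, 17.5, 18.0 and 12.5 TPM in DEET batches 1 to 4. Here batch 4 was clearly the lowest in both treatments, with a log2 difference of -0.57 ± 0.06 (adjusted p = 1.3e-05). For rde-1, the Argonaute that takes up guides cut from foreign double-stranded RNA, the level was 41.2, 45.4, 43.4 and 34.7 TPM in DMSO batches 1 to 4 and 42.5, 45.5, 44.4 and 34.8 TPM in DEET batches 1 to 4. The log2 ratio of DEET over DMSO lay between -0.00 and 0.06 in every batch, and batch 4 was lower by a log2 difference of -0.32 ± 0.04 (adjusted p = 6.1e-05).

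All 6 Argonautes of secondary 22G guides were called lower in batch 4, beside 29.8% of all tested genes. The values of sago-2 there lay within the range of the rest. The median log2 difference of the 6 was -0.57. The most abundant, wago-1 on chromosome I at 7235384 to 7238792, plus strand, encodes a germ granule Argonaute that silences transposons and pseudogenes. Its level was 301.6, 318.2, 311.7 and 187.6 TPM in DMSO batches 1 to 4 and 307.7, 308.0, 313.0 and 217.3 TPM in DEET batches 1 to 4. The 6 libraries of batches 1 to 3 lay within a narrow band, and both batch 4 libraries lay far below it, at a log2 difference of -0.61 ± 0.06 (adjusted p = 1.1e-05). The level of ppw-1, an Argonaute needed for RNA interference in the germline, was 117.5, 124.1, 123.2 and 70.9 TPM in DMSO batches 1 to 4 and 126.0, 128.0, 124.5 and 82.5 TPM in DEET batches 1 to 4. DEET was the higher library in each batch, by log2 ratios of 0.12, 0.04, 0.01 and 0.22. The ranges of ppw-1 overlapped, as they must with both batch 4 libraries below all others. Its blocked DEET difference of 0.10 ± 0.05 had the lowest unadjusted p of the 43 genes, 0.0677 (edgeR, adjusted p = 1).

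The other germline members of the 22G group moved with wago-1. The gene csr-1, whose Argonaute binds guides against transcripts that the germline expresses, had a mean of 170.2 TPM in batches 1 to 3 and 116.9 TPM in batch 4. For wago-3 and wago-4, both tied to the passing of silencing to offspring, these means were 72.9 and 54.6 TPM, and 76.2 and 48.8 TPM. The largest difference of the group was that of ppw-1, at -0.68 ± 0.06 (adjusted p = 3.2e-06).

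The exception was sago-2, which also encodes an Argonaute of secondary guides. Its level was 4.49, 9.30, 4.74 and 5.16 TPM in DMSO batches 1 to 4 and 4.66, 9.37, 4.67 and 4.65 TPM in DEET batches 1 to 4. Both batch 2 libraries stood above all others, and the batch 4 values lay within the range of the rest. Its mean in batch 4, 4.90 TPM, lay above those of batches 1 and 3, at 4.58 and 4.70 TPM, and below that of batch 2, at 9.33 TPM. Its lower call in batch 4, -0.25 ± 0.07 (adjusted p = 0.0064), did not pass without a scaling factor or without the DEET library of batch 4. The gene overlaps eme-1 on the opposite strand, which had 1449 to 1949 counts against 582 to 1203 for sago-2, and no source used here says whether the counting used strand.

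The nuclear Argonaute hrde-1 of the germline, which carries inherited silencing, lies on chromosome III at 4172337 to 4176159, minus strand. Its level was 245.4, 263.1, 257.2 and 130.9 TPM in DMSO batches 1 to 4 and 244.1, 254.4, 254.2 and 161.5 TPM in DEET batches 1 to 4. In batches 1 to 3 the treatments were alike, and in batch 4 both libraries were far lower, the DMSO library most. The batch 4 difference was -0.78 ± 0.07 on the log2 scale (adjusted p = 6.7e-06), the largest fall after that of ergo-1, and the DEET difference was 0.03 ± 0.24 (adjusted p = 1). Its somatic counterpart nrde-3 had a mean of 16.4 TPM in batches 1 to 3 and 12 TPM in batch 4 (log2 -0.44 ± 0.05, adjusted p = 2.7e-05).

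All 5 polymerases and partners were lower in batch 4, beside 29.8% of all tested genes, with a median log2 difference of -0.32. The most abundant was ekl-1, a Tudor domain partner of the polymerase complexes, at 62.7, 61.2, 63.6 and 51.8 TPM in DMSO batches 1 to 4 and 63.7, 59.4, 62.7 and 52.5 TPM in DEET batches 1 to 4. Its 2 libraries in each batch lay close together, and batch 4 was lowest. The level of rrf-1, a polymerase that makes secondary guides, was 50.0, 46.6, 54.1 and 39.2 TPM in DMSO batches 1 to 4 and 45.8, 48.9, 46.2 and 39.0 TPM in DEET batches 1 to 4. It had the lowest DEET estimate of the 43 genes, and its treatments overlapped, with the DEET library lower in batches 1 and 3 and higher in batch 2. Its DEET difference was -0.08 ± 0.12 without the block and -0.07 ± 0.05 with it (adjusted p = 1 for both), and its batch 4 difference of -0.30 ± 0.06 did not pass without the DMSO library of batch 4.

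The polymerase of the 26G pathway, rrf-3, had the largest batch 4 difference of the polymerase group. Its level was 26, 27.2, 27.6 and 18.9 TPM in DMSO batches 1 to 4 and 26.2, 26.6, 27.2 and 19.6 TPM in DEET batches 1 to 4. Batches 1 to 3 were alike, and the batch 4 difference was -0.47 ± 0.05 on the log2 scale (adjusted p = 7.3e-06). The germline polymerase gene ego-1 went from a mean of 50.2 TPM in batches 1 to 3 to 39.9 TPM in batch 4, and drh-3, a Dicer-related helicase that works with the polymerases, from 48.1 to 35.6 TPM.

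Of the 10 genes of the Mutator foci and of amplification, 9 were lower in batch 4, beside 29.8% of all tested genes. The median log2 difference of the 10 was -0.49. The level of mut-16, the scaffold on which Mutator foci form, was 59.0, 65.7, 59.6 and 37.6 TPM in DMSO batches 1 to 4 and 61.5, 66.1, 61.9 and 41.6 TPM in DEET batches 1 to 4. DEET was the higher library in each batch, by log2 ratios of 0.08, 0.01, 0.05 and 0.15. The treatments overlapped, as they must with both batch 4 libraries below all others. The blocked DEET difference of 0.07 ± 0.04 had an unadjusted p of 0.122 (edgeR, adjusted p = 1). The level of rde-10, part of a complex that promotes secondary guides, was 26.6, 29.1, 27.5 and 16.4 TPM in DMSO batches 1 to 4 and 27.3, 28.7, 27.3 and 17.7 TPM in DEET batches 1 to 4. It had the largest batch 4 difference of the group, -0.69 ± 0.05 (adjusted p = 1.3e-06), and it overlaps the coding gene Y47G6A.21 on the opposite strand.

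The gene that did not follow the group was rde-8, which encodes a ribonuclease that cuts target transcripts. Its level was 66.4, 65.4, 77.9 and 67.5 TPM in DMSO batches 1 to 4 and 68.1, 66.1, 80.0 and 68.0 TPM in DEET batches 1 to 4. Batch 3 was highest in both treatments, the other batches were alike, and DEET was the higher library in each batch by log2 ratios of 0.01 to 0.05. It was the most abundant of the 10 genes. The other members, the exonuclease gene mut-7, the helicase genes mut-14, rde-12 and znfx-1, and mut-15, rde-2 and rde-11, had batch 4 differences between -0.63 for znfx-1 and -0.24 for mut-14, all called. The counts of mut-14 are uncertain as to copy, since smut-1 is a near-identical gene, and rde-2 overlaps hint-1 on the same strand, with a median of 1941 counts for hint-1 and 3217 for rde-2.

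All 5 genes of Dicer and the ERI complex were lower in batch 4, beside 29.8% of all tested genes. Their median log2 difference was -0.45. The level of rde-4, a double-stranded RNA binding partner of Dicer, was 119.01, 123.01, 128.02 and 89.76 TPM in DMSO batches 1 to 4 and 118.22, 122.55, 122.39 and 92.81 TPM in DEET batches 1 to 4. Its batches 1 to 3 lay close together above batch 4. The level of eri-5, a Tudor domain protein that links Dicer to rrf-3, was 33.3, 30.8, 35.7 and 19 TPM in DMSO batches 1 to 4 and 31.1, 29.1, 34.5 and 18.9 TPM in DEET batches 1 to 4. DEET was the lower library in each batch, by log2 ratios of -0.08, -0.09, -0.06 and -0.01, and the blocked DEET difference of -0.06 ± 0.04 had an unadjusted p of 0.167 (edgeR, adjusted p = 1). Its batch 4 difference was -0.76 ± 0.05 (adjusted p = 5.5e-07). The gene of Dicer itself, dcr-1, went from a mean of 43.8 TPM in batches 1 to 3 to 31.9 TPM in batch 4, eri-3 from 30.3 to 20.2 TPM, and the exonuclease gene eri-1 from 53.6 to 44.7 TPM.

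The genes that make and finish piRNAs had the smallest median log2 difference of the role groups in batch 4, at -0.14. That of the nuclear silencing cofactors was close to it, at -0.16. Of the 5 piRNA genes 3 were called lower, beside 29.8% of all tested genes. The level of tofu-6, needed for the processing of piRNA precursors, was 118.2, 117.1, 118.7 and 88.4 TPM in DMSO batches 1 to 4 and 117.4, 117.4, 123.5 and 95.6 TPM in DEET batches 1 to 4. It followed the pattern of the germline Argonautes, with a batch 4 difference of -0.36 ± 0.04 (adjusted p = 3.6e-05). That of parn-1, which trims piRNA ends, was 17.5, 16.5, 16.9 and 11.6 TPM in DMSO batches 1 to 4 and 16.8, 14.7, 18.0 and 13.9 TPM in DEET batches 1 to 4. Its treatments overlapped, the DMSO library of batch 4 was the lowest, and the batch 4 difference of -0.38 ± 0.08 (adjusted p = 0.0013) did not pass without that library. The level of prde-1, needed for piRNA transcription, stayed between 16.3 and 18.3 TPM, and that of henn-1, the methyltransferase that protects guide ends, between 49.2 and 56.5 TPM, though henn-1 overlaps fbxl-1 on the same strand. The level of pid-1, a partner of tofu-6 in precursor processing, ran from 53.7 to 62.7 TPM, and its lower call in batch 4 (-0.14 ± 0.05, adjusted p = 0.0362) was lost without a scaling factor, where it was -0.02, and with any of 6 libraries left out (all but DEET 2 and DMSO 2).

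The nuclear silencing cofactors nrde-1, nrde-2 and nrde-4 work with the nuclear Argonautes at the target locus. The level of nrde-4 was 64.3, 64.6, 66.9 and 54.1 TPM in DMSO batches 1 to 4 and 65.0, 66.4, 69.9 and 52.4 TPM in DEET batches 1 to 4. It was lower in batch 4 by a log2 difference of -0.30 ± 0.04 (adjusted p = 1.2e-04), with the treatments alike. For nrde-2 the difference was -0.16 ± 0.04 (adjusted p = 0.0081), lost without a scaling factor, and for nrde-1, which overlaps C14B1.8 on the opposite strand, it was -0.07 ± 0.05 (adjusted p = 0.202).

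Leaving batch 4 out, a comparison added after seeing the data, the small RNA pathway genes differed between batches 1, 2 and 3 about as often as other genes did. The edgeR test called 9 of 43 (20.9%), against 19.5% of all tested genes. Among these 9, the largest spans on the log2 scale were 1.08 for alg-3, with batch means of 5.55, 2.62 and 3.56 TPM (adjusted p = 0.0013), and 1.03 for sago-2, with 4.58, 9.33 and 4.70 TPM (adjusted p = 9.4e-06). The span of alg-4 was 1.19, above both, but it did not pass (adjusted p = 0.0609). For rde-8 the means were 67.3, 65.7 and 79.0 TPM (adjusted p = 0.0043). The other 6 were ergo-1, csr-1, mut-16, znfx-1, eri-5 and nrde-1, with spans of 0.13 to 0.22 on the log2 scale.

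Other genes of the pathway were also mostly lower in batch 4 with TMM scaling. Of 66 tested genes of a list of other small RNA pathway genes, 55 were lower (83.3%, against 29.8% of all tested genes) and 5 were higher (7.58%, against 36.4%), with a median log2 difference of -0.45. Those 5 were wago-10, at 1.18 and in the order of batches shown by alg-3, the helicase gene drh-2 at 0.26, sid-2 and sid-5 of double-stranded RNA uptake and transport at 0.34 and 0.40, and sago-1, an Argonaute related to sago-2, at 0.14. With DEET, 0 of the 66 passed with or without the block, and the lowest unadjusted p was 0.0751, for sago-1 (blocked log2 -0.07 ± 0.04, edgeR adjusted p = 1).

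Of 9 genes known to be under small RNA control 0 passed with DEET. In batch 4, 3 of the 9 (33.3%) were higher, near the 36.4% of all tested genes, and 1 was lower, beside 29.8% of all tested genes. The gene lin-41, a microRNA target that oocytes express, was the lower one (log2 -0.89 ± 0.06, adjusted p = 1.2e-06), and lin-14, xol-1 and K02E2.6 were higher, at 0.20, 0.68 and 0.55. The level of xol-1, the sex determination switch that piRNAs repress, was 3.31, 3.15, 3.28 and 6 TPM in DMSO batches 1 to 4 and 2.84, 3.72, 2.83 and 4.19 TPM in DEET batches 1 to 4. Its highest values were both in batch 4, and the treatments overlapped.

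Markers of other cells moved with the batches as well. The summed level of 13 oocyte markers was 6661.9 to 7248.8 TPM in batches 1 to 3, and in batch 4 it was 3979.1 TPM with DMSO and 4572.6 TPM with DEET. That of 11 germline markers was 1597.0 to 1674.0 TPM in batches 1 to 3, and in batch 4 it was 1015.5 TPM with DMSO and 1156.8 TPM with DEET. In batch 4, 13 of 13 oocyte markers and 7 of 11 germline markers were lower, beside 29.8% of all tested genes, with medians of -0.68 and -0.54 on the log2 scale, both further from 0 than the -0.41 of the small RNA pathway genes. Markers of body wall muscle, intestine, neurons and epidermis had medians of 0.42, 0.30, 0.47 and 0.99, with 6 of 8, 5 of 7, 4 of 8 and 8 of 8 called higher, beside 36.4% of all tested genes. The summed level of the intestine markers was 2416.1 to 3059.7 TPM in batches 1 to 3, and in batch 4 it was 4877.4 TPM with DMSO and 3996.1 TPM with DEET. The sums of the epidermis and neuron markers in batch 4 lay within or close to the range of the other batches. None of these lists had a marker at 0 in every library, and their part in the batch 4 values of the small RNA pathway genes was not tested.

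**Figure D5:**
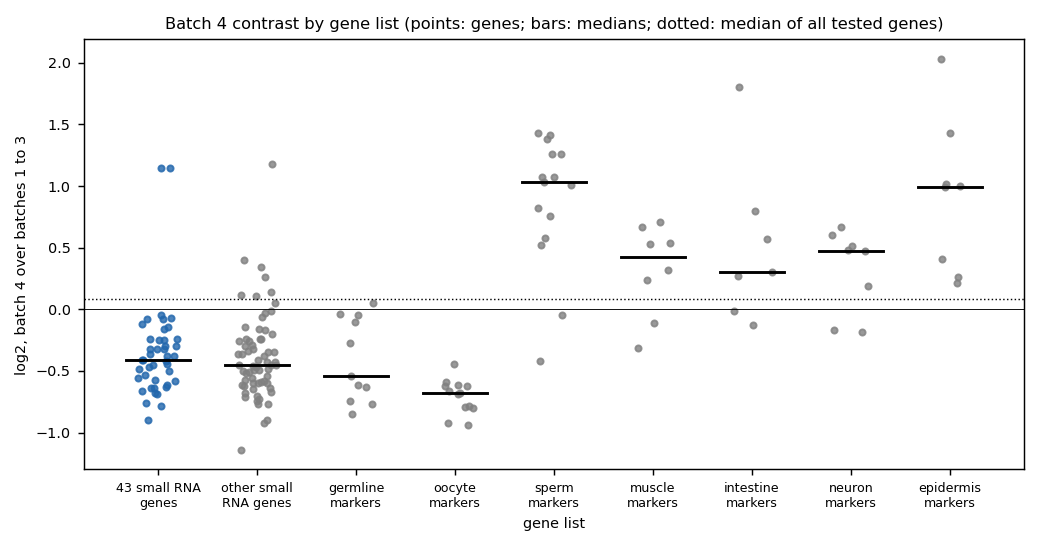
Log2 difference of batch 4 from batches 1 to 3 (vertical axis) for each tested gene of 9 lists (horizontal axis), with 1 point per gene, a bar at the list's median and a dotted line at the median of all tested genes. The small RNA pathway genes, with 2 points at 1.15 for alg-3 and alg-4 and 4 that turn slightly above 0 without a scaling factor, lie on the side of the germline and oocyte markers, opposite to the sperm and somatic markers.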

How the data were processed

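Whole-worm polyadenylated RNA of 4 DEET and 4 DMSO samples was read as paired reads of 38 nucleotides from Kapa mRNA HyperPrep libraries, per the labels' protocols. The submitters' processing notes name Salmon, DESeq2 and build WBcel235, with no version or setting. The authors deposited whole-number counts per gene, not normalized, and TPM values, for 46244 identifiers; of these, 46182 matched 1 annotated gene by sequence name, 3 shared a name and 59 did not match. Salmon assigns reads that fit several transcripts by likelihood, so the counts of gene copies and of overlapping genes are not fully separate. Of the 43 genes, 15 overlap a coding gene, 3 of them on the same strand, and in 5 (sago-2, rde-2, rde-10, henn-1 and nrde-1) the partner held a sizeable count of its own. Read pairs carry no molecular identifiers.

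Tests were two-sided and run across all genes on the deposited counts in R 4.3.3 by edgeR 4.0.16, quasi-likelihood (TMM scaling, default expression filter by treatment, robust estimation, Benjamini-Hochberg adjustment, threshold 0.05). Any adjusted p in the text comes from this test unless another tool is named. The DEET fit held treatment alone, since no source says that the authors modelled the pair, and the pair as a block was set beside it. Batch tests kept treatment in the fit, where each batch has 1 DEET and 1 DMSO library. Their SE and p thus measure how far the DEET and DMSO libraries of a batch disagree, not the spread between batches. The SE is the absolute log2 value over the root of F and so restates the p. Intervals are 95% from the same fit. Ratios within batches subtract log2 CPM values computed with prior count 2 and TMM scaling. The TMM factors of batch 4 were 1.048 for its DEET library and 1.078 for its DMSO library. Alternatives used DESeq2 1.42.0, limma 3.58.1 on log2(TPM + 1) and log2(TPM + 0.1), other scaling, no filter, no ribosomal RNA genes, and each library left out. The steps were tested on simulated data.

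The labels mark the pair number as a batch, so the numbers pair the samples. Deviations from the group mean correlated within pairs across genes at 0.43, 0.71, 0.56 and 0.90 for pairs 1 to 4. The highest correlation of each DEET library with a DMSO library of another number was -0.023, 0.534, 0.345 and -0.051. Within groups, libraries differed by a chi-square per gene of 13.4 or more, so each counted as a separate sample. The labels call the samples independent biological repeats.

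The members and all lists were chosen with earlier results of these data known. Of a list of 69 other small RNA pathway genes 67 were matched and 66 passed the filter. Every member is named with a level or a test, and values in each library are given, within each role, for the gene with the highest mean TPM, the largest DEET difference and the largest batch 4 difference. The exceptions are sago-2 and xol-1, added after their values were seen. Of the wider lists, the rule named the genes with the lowest p, and the genes called in batch 4 were named after their values were seen.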

Additional observations from a re-analysis of the deposited data

Results flagged for a closer look

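In each treatment, the highest or lowest of the 4 libraries was compared with its nearest neighbour for all 43 genes. Of the 86 group values 29 had a library that stood apart by Dixon's 95% criterion, in 21 genes, of which 8 stood apart in both treatments. Chance gives about 1 in 20 groups. The share over all tested genes was not computed for this criterion, so the count is not a result about these genes against others. Over all tested genes, both batch 4 libraries lay below the other 6 for 30.3% and above them for 33.6%. The library that stood apart was one of batch 4 in 25 cases, 13 with DMSO and 12 with DEET, and was then always the lowest of its group.

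In the DMSO group, the batch 4 library stood apart at 93.1 TPM for prg-1, 56.2 TPM for ergo-1, 187.6 TPM for wago-1, 44.7 TPM for wago-4, 70.9 TPM for ppw-1 and 130.9 TPM for hrde-1. Outside the Argonautes it did so at 34.4 TPM for drh-3, 32.3 TPM for mut-7, 35.6 TPM for mut-14, 43.6 TPM for rde-12, 18.7 TPM for eri-3, 88.4 TPM for tofu-6 and 11.6 TPM for parn-1. For hrde-1 the other 3 DMSO libraries lay between 245.4 and 263.1 TPM.

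In the DEET group, the batch 4 library stood apart at 217.3 TPM for wago-1, 52.8 TPM for wago-4, 82.5 TPM for ppw-1 and 161.5 TPM for hrde-1. It also did so at 19.6 TPM for rrf-3, 40.6 TPM for ego-1, 33.7 TPM for mut-15, 17.7 TPM for rde-10, 48.9 TPM for rde-12, 33.5 TPM for dcr-1, 92.8 TPM for rde-4 and 21.6 TPM for eri-3.

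The other 4 cases were of single genes in other batches, alike in both treatments. The level of sago-2 stood apart as high in batch 2, at 9.30 TPM with DMSO and 9.37 TPM with DEET, where the other libraries lay between 4.49 and 5.16 TPM. That of rde-8 stood apart as high in batch 3, at 77.9 TPM with DMSO and 80.0 TPM with DEET, where the others lay between 65.4 and 68.1 TPM.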

How the results depend on the processing

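The count of small RNA pathway genes called with DEET was 0 in all 25 alternatives, including the replicate block, which changed no call of a member, and the smallest adjusted p of any member was 0.946 (edgeR, without the DEET library of batch 4). One member passed an unadjusted p of 0.05 in 1 of those fits, the blocked fit without pair 2. Over all tested genes the DEET test called 0 without the block (10 by DESeq2, 3 with RLE scaling or no filter) and 13 with it (20 by DESeq2, 5 and 3 by limma). The sign of the DEET difference turned in at least 1 alternative for all 43 genes. The median DEET difference ran from -0.08 to 0.11 with 1 library left out and from -0.01 to 0.05 with 1 pair left out under the block. The count of genes that differed between batches ran from 34 to 42 over the alternatives with all batches, and was 9 with batch 4 left out, where 9 of 43 is close to the share of all genes. For batch 4 against the others the count ran from 35 to 40, and the median difference from -0.51 to -0.35 with 1 library left out, and was -0.29 without a scaling factor. Of 688 single-gene values of this contrast 664 kept direction and call, 18 lost the call (in alg-1, sago-2, rrf-1, pid-1, parn-1 and nrde-2), 2 gained it and 4 changed sign, all without a scaling factor: 0.07 for rde-8 and 0.04 for each of prde-1, henn-1 and nrde-1, none of them called. For these the cause was not tested. With 4 libraries a group and batch spread in the unblocked fit, small DEET changes could be missed. The intervals given above are not adjusted for the number of genes tested, so they set no limit of detection for a call.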
